A study of Mus musculus with 6 samples.

Results

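The transcripts of 10 secreted proteins of antimicrobial defense and the acute-phase response (*Lcn2*, *Saa3*, *Ptx3*, *Orm1*, *Slpi*, *Lyz1*, *Lyz2*, *Camp*, *S100a8*, and *S100a9*) were followed in murine bone marrow–derived macrophages (BMDMs). They were chosen by name, as every non-control spot whose gene name on the array was that of a listed gene, which gave 10 of the 34844 gene names and 11 of the 55681 probes. *Camp* had 2 probes and each of the other genes had 1. Each probe was spotted 1 time per array, and none of these spots was flagged as an outlier or saturated.

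BMDMs are macrophages differentiated from bone marrow in vitro, here for 7 days in medium conditioned by L929 cells, from wild-type female C57BL/6 mice. The written methods name the strain C57BL6/J. The age of the mice was 6 to 8 weeks in the sample labels, against 8 to 12 weeks in the written methods. Cells were left untreated, were stimulated for 4 h with LPS, the bacterial cell wall component sensed by TLR4, or were given the USP7 inhibitor HBX41,108 at 10 µM for 30 min and then LPS (LPS+USP7i). The LPS dose was 100 ng/ml according to the description of the series, whereas the sample labels write 100 with the unit ng/µl. USP7 is a deubiquitinase, an enzyme that removes ubiquitin from proteins. The comparison of LPS+USP7i with LPS asks which transcripts of LPS-activated macrophages differ when this inhibitor is given before LPS. The sources used here do not say whether cells given LPS alone received the inhibitor's solvent, and there was no group with the inhibitor alone among the samples analysed here.

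Each group was measured on 2 one-color arrays from separate experiments, so 6 arrays in all, on 1 slide. The small number of arrays limits precision throughout, and the lowest two-sided p of an exact permutation test at this size is 0.333. On the slide, 1 coordinate of the array position followed the replicate number and the other followed the treatment, so that position and treatment cannot be told apart. Replicates correlated with r of 0.996, 0.993, and 0.991 in the untreated, LPS, and LPS+USP7i groups across 20721 probes, which are not independent of each other. Of 10 macrophage marker names, 9 were on the array and all 9 were well above background on all 6 arrays, among them *Csf1r*, *Cd68*, and *Itgam*. Of these 9, 1 was higher and 1 lower with LPS than untreated, and 2 were lower with LPS+USP7i than with LPS. Of all genes, 7.98% were higher and 12.8% lower with LPS, and 5.51% were higher and 4.28% lower with the inhibitor. Levels are given as log2 of the quantile-normalized signal. In bulk samples such as these, fewer cells of a type and less RNA per cell cannot be told apart.

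The proteins act outside the cell in different ways. Lipocalin-2, encoded by *Lcn2*, binds the siderophores with which bacteria take up iron, serum amyloid A3 is an acute-phase protein made in macrophages and other cells outside the liver, and pentraxin-3 is a soluble pattern recognition molecule that opsonizes microbes. Lysozymes cleave bacterial peptidoglycan, the cathelicidin encoded by *Camp* disrupts bacterial membranes, and S100A8 and S100A9 form calprotectin, which withholds zinc and manganese from microbes. SLPI inhibits neutrophil proteases and *Orm1* encodes a plasma acute-phase glycoprotein. NF-κB and C/EBP factors are known regulators of several of these genes in activated myeloid cells.

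The RefSeq promoter table of build GRCm38.p6 held an entry for 9 of the 10 genes. The 250 bases before the start site are shown for the 3 genes that rose with LPS and for *Slpi*, which was not called. Letters matching the C/EBP motif TTNNGNAA on either strand are in capitals. The promoters of *Lcn2* (chr2:32387740-32387989, minus strand), *Saa3* (chr7:46715677-46715926, minus strand), *Ptx3* (chr3:66219637-66219886, plus strand), and *Slpi* (chr2:164356508-164356757, minus strand) read 5′ to 3′:
Lcn2: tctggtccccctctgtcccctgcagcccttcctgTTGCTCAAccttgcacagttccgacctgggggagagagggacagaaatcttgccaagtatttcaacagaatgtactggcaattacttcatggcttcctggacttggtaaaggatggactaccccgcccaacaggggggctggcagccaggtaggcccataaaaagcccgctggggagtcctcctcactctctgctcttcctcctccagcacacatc
Saa3: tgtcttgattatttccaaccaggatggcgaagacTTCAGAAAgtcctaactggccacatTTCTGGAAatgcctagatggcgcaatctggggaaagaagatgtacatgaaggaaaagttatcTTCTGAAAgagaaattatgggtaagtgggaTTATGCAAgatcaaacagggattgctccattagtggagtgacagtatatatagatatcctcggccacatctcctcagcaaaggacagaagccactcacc
Ptx3: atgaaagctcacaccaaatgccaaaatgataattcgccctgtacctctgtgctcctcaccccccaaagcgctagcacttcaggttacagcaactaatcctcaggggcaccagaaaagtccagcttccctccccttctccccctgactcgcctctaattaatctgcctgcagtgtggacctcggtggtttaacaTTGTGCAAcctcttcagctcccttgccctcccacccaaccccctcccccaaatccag
Slpi: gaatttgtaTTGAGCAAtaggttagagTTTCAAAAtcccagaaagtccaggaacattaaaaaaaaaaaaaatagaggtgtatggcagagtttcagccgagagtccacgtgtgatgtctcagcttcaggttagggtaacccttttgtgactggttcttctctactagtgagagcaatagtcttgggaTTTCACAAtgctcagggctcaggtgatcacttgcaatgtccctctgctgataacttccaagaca

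TTNNGNAA was found in 8 of the 9 promoters, and in 36.9% of all 32841 promoters of this length. The narrower C/EBP form TTGCNNAA, whose matches are also matches of TTNNGNAA, was found in 6 of the 9, *Lcn2*, *Saa3*, *Ptx3*, *Slpi*, *Lyz1*, and *S100a9*, and in 9.57% of all promoters. It was present both in genes that rose with LPS and in genes that were not called. No match (0 of 9) was found for a pair of NF-κB spellings, GGG and TTTCC spaced by 2 bases or GGG and TTCC spaced by 3, the second of which takes in the first, or for the STAT letters TTCNNNGAA and the AP-1 letters TGANTCA. These are in 1.41%, 4.65%, 7.02%, and 6.75% of all promoters. Both strands were searched, and the counts describe these windows only.

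In LPS-stimulated BMDMs, *Lcn2*, *Saa3*, and *Ptx3* rose, and none of the 10 genes was called lower. With the inhibitor *Lcn2* and *Saa3* were lower than with LPS alone, by 5.84-fold and 7.82-fold, whereas the difference of *Ptx3* did not pass the threshold. The other 7 genes passed it in neither comparison, although with the replicate number as a block, *Camp* and *S100a9* passed for LPS (adjusted p = 0.0214 and 0.0154) and *Camp* passed narrowly for the inhibitor (0.0499). By limma, 3 of 10 genes were higher with LPS at an adjusted p under 0.05, where 7.98% of all genes were higher and 12.8% were lower. For LPS+USP7i against LPS, 2 of 10 were lower, where 4.28% of all genes were lower and 5.51% were higher. For LPS+USP7i against untreated cells, 0 of 10 were called, with 6.15% of all genes higher and 8.72% lower. An unadjusted p under 0.05 was seen for 2 of the 10, *Ptx3* and *Slpi*. With the replicate number as a block, both passed as higher (adjusted p = 0.0344 and 0.0486 by limma). The median log2 difference of the 10 genes was 1.58 for LPS against untreated, −0.43 for LPS+USP7i against LPS, and 0.65 for LPS+USP7i against untreated, beside 0.0016, 0.00078, and −0.0021 over all genes. Without overlap between the arrays of the groups, 5 of the 10 genes were higher and 1 was lower with LPS (31.0% and 29.9% of all genes), and the 5 include *Orm1*, which was well above background on no LPS array. For LPS+USP7i, 2 genes, *Slpi* and *Lyz2*, were higher and 3, *Lcn2*, *Saa3*, and *Ptx3*, were lower than with LPS in this way (26.8% and 25.3% of all genes), and 5, *Orm1* again among them, were higher and 0 lower than untreated (28.9% and 29.4%). Each pair of these comparisons shares a group of arrays.

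**Figure D1:**
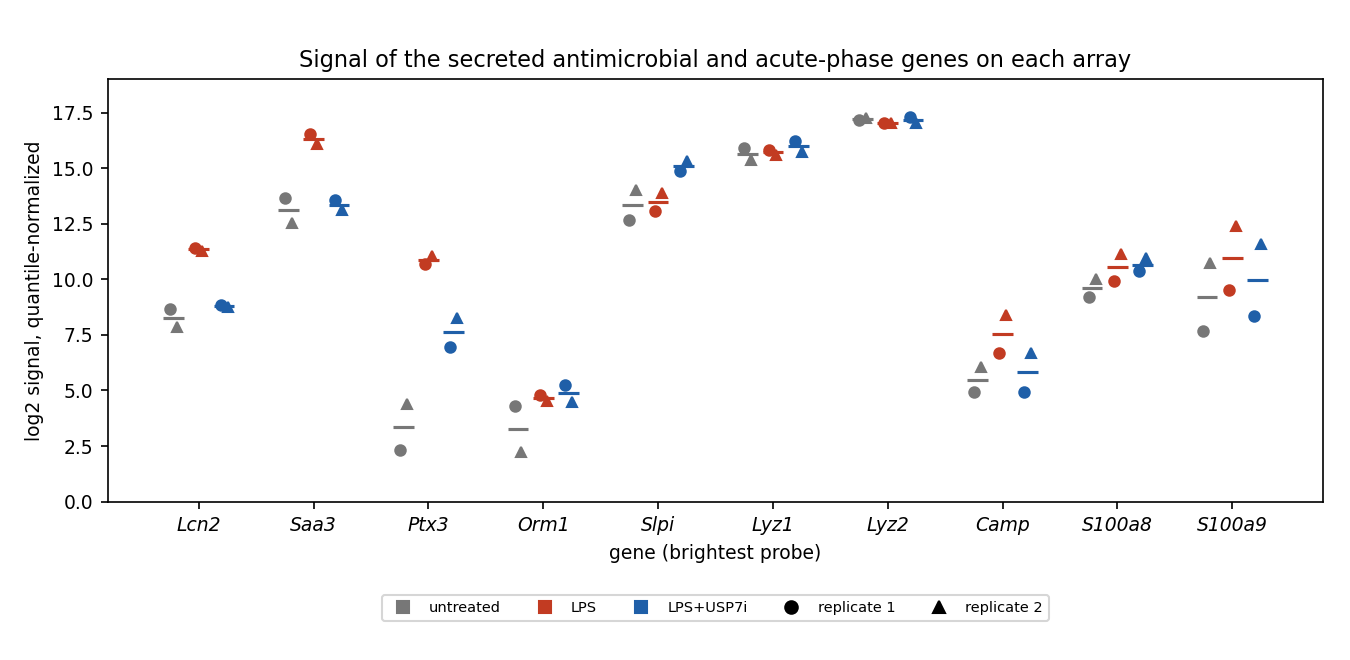
Log2 quantile-normalized signal (y axis) of the brightest probe of each of the 10 genes (x axis) on every array, with circles for replicate 1, triangles for replicate 2, colors for the groups, and a bar at each group's mean. *Lcn2*, *Saa3*, and *Ptx3* stand higher on both LPS arrays than on the untreated and LPS+USP7i arrays, *Slpi* stands highest on the LPS+USP7i arrays, and the replicates of *S100a9* lie far apart in every group.

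Among the acute-phase genes, *Lcn2* had levels of 8.65 and 7.87 on the untreated arrays, 11.41 and 11.29 on the LPS arrays, and 8.85 and 8.76 on the LPS+USP7i arrays. Both LPS arrays lay above all other arrays, and both LPS+USP7i arrays lay just above the higher untreated array. *Lcn2* rose by 3.09 on the log2 scale with LPS (standard error (SE) 0.29, adjusted p = 0.00772 by limma), an 8.53-fold increase with a 95% interval of 4.94- to 14.7-fold. With the inhibitor it was 5.84-fold lower than with LPS alone (log2 difference −2.55, SE 0.29, adjusted p = 0.0237, interval 3.38- to 10.1-fold), by −2.57 within replicate 1 and −2.53 within replicate 2. The mean signal with the inhibitor was 17.1% of that with LPS. Against untreated cells the difference was 0.55, with an interval of −0.24 to 1.34 (adjusted p = 0.376), which does not show that the levels were equal.

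*Saa3* read 13.67 and 12.55 without treatment, 16.55 and 16.09 after LPS, and 13.57 and 13.14 after LPS+USP7i. The LPS arrays were again above all others, and the LPS+USP7i arrays lay between the 2 untreated arrays. *Saa3* rose by 3.21 with LPS (SE 0.45, adjusted p = 0.0192 by limma), which is 9.24-fold with an interval of 3.87- to 22.1-fold. It was 7.82-fold lower with the inhibitor (log2 difference −2.97, SE 0.45, adjusted p = 0.0399, interval 3.28- to 18.7-fold), by −2.98 in replicate 1 and −2.96 in replicate 2. The mean signal with the inhibitor was 12.8% of that with LPS, and the difference from untreated cells was 0.24 with an interval of −1.01 to 1.496 (adjusted p = 0.871).

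The nearest gene to *Saa3* over the 6 arrays, out of 13633 and by Euclidean distance between levels relative to the untreated mean, was its close relative *Saa1* (distance 0.14). The 60-base probes of these genes are shown, read from the array file with positions on build mm9, *Saa3* at chr7:53970389-53970448 and *Saa1* at chr7:53996070-53996129, both on the minus strand:
Saa3: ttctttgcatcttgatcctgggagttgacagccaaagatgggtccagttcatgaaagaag
Saa1: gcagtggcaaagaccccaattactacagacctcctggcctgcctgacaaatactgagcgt
Whether either probe also takes up the other gene's transcript was not tested. *Saa1* had levels of 11.74 and 10.61 (untreated), 14.70 and 14.17 (LPS), and 11.73 and 11.23 (LPS+USP7i). It rose by 3.26 (SE 0.48, adjusted p = 0.0206) and was lower by −2.95 with the inhibitor (SE 0.48, adjusted p = 0.0438).

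*Ptx3* stood at 2.31 and 4.41 on the untreated arrays, rose to 10.70 and 11.04 on the LPS arrays, and stood at 6.96 and 8.26 on the LPS+USP7i arrays. Untreated replicate 2 was well above background and replicate 1 was not, while all LPS and LPS+USP7i arrays were. The 3 groups did not overlap, in the order untreated, LPS+USP7i, and LPS. *Ptx3* rose by 7.51 with LPS (SE 0.88, adjusted p = 0.0125 by limma). The size of this rise depends on how the dim untreated signal is treated, and was 4.51 with normexp background correction and 6.08 with the deposited normalized values, both past the threshold. It was 6.46 and 8.56 without untreated replicate 1 or 2. The inhibitor difference was −3.26 (SE 0.88, interval −5.68 to −0.83), −3.74 in replicate 1 and −2.78 in replicate 2, and its adjusted p of 0.122 missed the threshold. It passed with normexp background correction (0.00237), with the deposited normalized values (0.0184), and with dim probes left out (0.0316). Against untreated cells the level with LPS+USP7i differed by 4.25 (SE 0.88, adjusted p = 0.0577), by 3.20 and 5.30 without untreated replicate 1 or 2. It passed under 6 of the 14 alternatives, with the replicate number as a block (0.0344), 75th percentile scaling (0.0152), dim probes left out (0.0113), the mean over probes (0.0479), and at the smaller values of 1.70 with normexp (0.0108) and 2.96 with the deposited values (0.0156). These are not separate evidence. *Ptx3* has 1 probe, so with the mean over probes, and with dim probes left out, its difference stayed at 4.25 and only the other values fitted changed. In every comparison the dim filter kept *Ptx3* only through the groups given LPS, where it was high. Percentile scaling called 21937 of 55680 probes higher than untreated.

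*Orm1* gave a dim signal, 4.29 and 2.24 without treatment, 4.81 and 4.52 after LPS, and 5.25 and 4.48 after LPS+USP7i. Only replicate 1 of the untreated cells and replicate 1 of LPS+USP7i were well above background and no LPS array was, so that its log2 differences set no change of the transcript. *Orm1* has near-identical relatives in the mouse genome, so that its probe may also take up their transcripts.

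**Figure D2:**
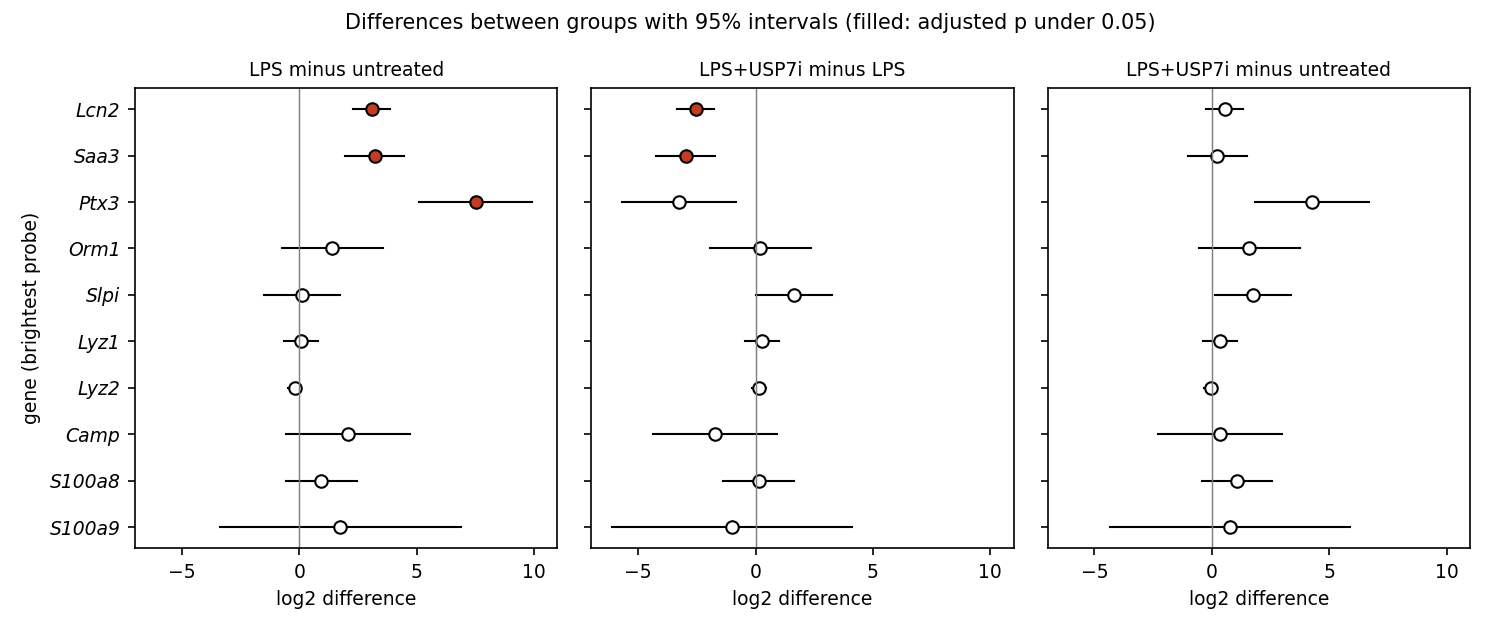
Log2 differences (x axis) of each gene (y axis) for LPS against untreated, LPS+USP7i against LPS, and LPS+USP7i against untreated, with 95% intervals from limma and filled points for an adjusted p under 0.05. *Lcn2*, *Saa3*, and *Ptx3* are filled in the first panel, *Lcn2* and *Saa3* in the second, and none in the third.

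The calls with the inhibitor were lost whichever array was left out. Over these 6 fits, the adjusted p ranged from 0.0561 to 0.100 for *Lcn2* and from 0.0627 to 0.151 for *Saa3*. Their differences stayed between −2.61 and −2.48 for *Lcn2* and between −3.19 and −2.74 for *Saa3* in these fits. In a fit of the LPS and LPS+USP7i arrays only, no probe of 55680 was called (smallest adjusted p = 0.0561), although at an unadjusted p under 0.05 there were 5206 lower and 6051 higher probes. The same count of 0 came without either untreated array, so these 3 fits do not bear on *Lcn2* or *Saa3* in particular. The fits without an LPS or an LPS+USP7i array still called 821 to 1703 probes lower, and *Lcn2* and *Saa3* were not among them. The increase of *Lcn2* with LPS was called whichever array was left out (adjusted p 0.0135 to 0.0491). For *Saa3* and *Ptx3* the LPS call was lost at differences of about the same size, 2.98 and 7.68 without LPS replicate 1 (adjusted p = 0.0939 and 0.0661) and 3.43 and 7.34 without LPS replicate 2 (0.0693 and 0.0650).

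**Figure D3:**
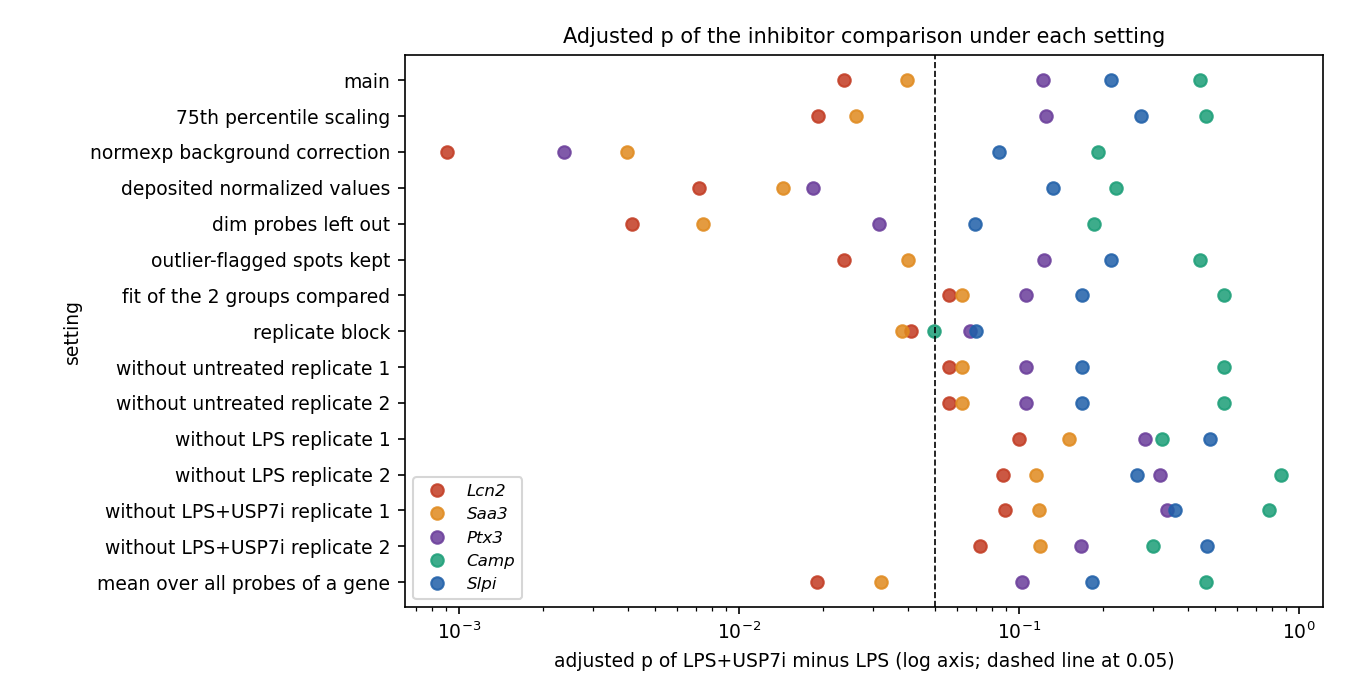
Adjusted p of the difference between LPS+USP7i and LPS (x axis, log scale, dashed line at 0.05) for *Lcn2*, *Saa3*, *Ptx3*, *Camp*, and *Slpi* under each way of processing (y axis). *Lcn2* and *Saa3* lie right of the line in the fit of the 2 groups compared and whenever 1 array was left out, and left of it otherwise.

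*Slpi* differed from these genes in the order of its groups. It read 12.68 and 14.02 on the untreated arrays, 13.05 and 13.89 on the LPS arrays, and 14.88 and 15.33 on the LPS+USP7i arrays. The untreated and LPS arrays overlapped, and both LPS+USP7i arrays lay above them. The LPS difference was 0.12 with an interval of −1.49 to 1.73 (adjusted p = 0.975 by limma). LPS+USP7i was 3.10-fold above LPS (log2 difference 1.63, SE 0.58, interval 1.02- to 9.46-fold), by 1.83 in replicate 1 and 1.43 in replicate 2, with an unadjusted p of 0.0481 and an adjusted p of 0.214. It passed under none of the 14 alternatives (adjusted p 0.0696 to 0.481). Against untreated cells LPS+USP7i differed by 1.75 (SE 0.58, adjusted p = 0.165), by 1.08 and 2.43 without untreated replicate 1 or 2. The difference passed with the replicate block (adjusted p = 0.0486), with dim probes left out (0.0481), and with 75th percentile scaling (0.0436), a scaling that moved the median of all probes by 0.55 and called 21937 of 55680 probes higher in this comparison.

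The lysozymes gave a bright signal on every array, and neither was called in any comparison. *Lyz1*, the lysozyme known from Paneth cells, had levels of 15.90 and 15.38 (untreated), 15.81 and 15.60 (LPS), and 16.22 and 15.75 (LPS+USP7i), with all 3 groups overlapping. *Lyz2*, the lysozyme of macrophages and other myeloid cells, had levels of 17.18 and 17.24 (untreated), 17.02 on both LPS arrays, and 17.29 and 17.05 (LPS+USP7i), with both LPS arrays the lowest. With quantile normalization, the intervals for *Lyz2* ran from −0.47 to 0.09 with LPS and from −0.13 to 0.43 with the inhibitor against LPS (adjusted p = 0.346 and 0.545 by limma). With 75th percentile scaling, which moved the median of all probes by 0.51 for LPS against untreated, *Lyz2* differed by 0.37 in the other direction (adjusted p = 0.0256), less than that shift. The sequences of both genes are close copies, so their signals may not be fully separate.

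*Camp*, *S100a8*, and *S100a9*, which neutrophils hold in large amounts, were all higher in replicate 2 of every group, as were *Slpi* (by 1.35, 0.84, and 0.45 on the log2 scale) and *Ptx3* (by 2.10, 0.34, and 1.30). *Lcn2*, *Saa3*, *Lyz1*, and *Orm1* went the other way in every group. Replicate 2 minus replicate 1 was −1.12, −0.45, and −0.43 for *Saa3* and −2.05, −0.30, and −0.78 for the dim *Orm1*. Without the replicate block, *Camp*, *S100a8*, and *S100a9* were called in no comparison. *S100a9* read 7.68 and 10.72 without treatment, 9.54 and 12.38 after LPS, and 8.35 and 11.57 after LPS+USP7i. Replicate 2 exceeded replicate 1 by 8.24-fold, 7.15-fold, and 9.35-fold in the same order. The 3 groups overlapped, and the LPS difference of 1.76 had an SE of 1.85 (adjusted p = 0.650 by limma). With the replicate number as a block, the same difference had an SE of 0.12 and an adjusted p of 0.0154. The LPS difference was 1.86 within replicate 1 and 1.65 within replicate 2. Without the block, it was 0.23 without untreated replicate 1, 3.28 without untreated replicate 2, 3.17 without LPS replicate 1, and 0.34 without LPS replicate 2. Leaving out an array breaks the pairing of replicates, so these last values take in the gap between replicates. The inhibitor difference of −0.998 missed the threshold both ways (adjusted p = 0.847, and 0.0523 with the block). It was −1.19 in replicate 1 and −0.80 in replicate 2.

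The brighter *Camp* probe (mm9 chr9:109749911-109749970) had levels of 4.91 and 6.05 (untreated), 6.68 and 8.40 (LPS), and 4.95 and 6.70 (LPS+USP7i). Replicate 2 was higher by 2.21-fold, 3.31-fold, and 3.36-fold, and both LPS arrays lay above the untreated ones, with a narrow overlap between LPS and LPS+USP7i. The LPS difference of 2.06 had an SE of 0.95 (adjusted p = 0.280 by limma), and 0.20 with the block (adjusted p = 0.0214). It was 1.77 within replicate 1 and 2.35 within replicate 2. Without the block, it was 1.49 and 2.63 without untreated replicate 1 or 2, and 2.92 and 1.20 without LPS replicate 1 or 2. For LPS+USP7i against LPS the difference was −1.72 (adjusted p = 0.444), and it passed narrowly with the block (0.0499). It was −1.73 in replicate 1 and −1.71 in replicate 2. Without LPS replicate 2 or LPS+USP7i replicate 1 it was −0.85 and −0.84, and without LPS replicate 1 or LPS+USP7i replicate 2 it was −2.58 and −2.59. The second probe (mm9 chr9:109749901-109749950) overlaps the first on the genome. It gave 4.03 and 5.35, 5.54 and 7.15, and 4.81 and 5.87 in the same order of groups, with differences of 1.66 and −1.01, and was not well above background on untreated replicate 1.

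*S100a8* had levels of 9.18 and 9.998 (untreated), 9.94 and 11.12 (LPS), and 10.39 and 10.94 (LPS+USP7i). Replicate 2 was again higher in each group, by 1.76-fold, 2.27-fold, and 1.47-fold. LPS differed from untreated by 0.94 (SE 0.54, adjusted p = 0.397 by limma), by 0.76 in replicate 1 and 1.12 in replicate 2. The LPS difference was 0.53 and 1.35 without untreated replicate 1 or 2, and 1.53 and 0.35 without LPS replicate 1 or 2. The difference of LPS+USP7i from LPS was 0.13 with an interval of −1.37 to 1.64 (adjusted p = 0.963), 0.45 in replicate 1 and −0.18 in replicate 2. None of these passed with the block.

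Markers of granulocytes were set beside these values. Of 21 names, 20 were on the array, 12 of them well above background on all 6 arrays and 4, *Cxcr2*, *Retnlg*, *Itgb2l*, and *Fcnb*, on none. No granulocyte marker was called in any comparison (0 of 20). Of all genes, 7.98% were higher and 12.8% lower with LPS than untreated. With LPS+USP7i, 5.51% were higher and 4.28% lower than with LPS, and 6.15% were higher and 8.72% lower than untreated. The signals of the granulocyte markers summed to 36442 and 33080 without treatment, 22555 and 24987 after LPS, and 40614 and 30200 after LPS+USP7i. The single gene *Csf3r*, a cytokine receptor, made up 54.9% to 74.3% of this sum. Without it, a choice made after seeing the data, the other 19 markers summed to 9358 and 11409, 8169 and 11270, and 10436 and 12955 in the same order. Most of these sums came in turn from *Mmp8* and *Elane*, so the sums give no direction between replicates for the list as a whole. Replicate 2 was higher for 13, 13, and 14 of the 20 markers. The granule gene *Ltf* had levels of 4.16 and 6.16, 3.15 and 7.89, and 3.33 and 7.48, and *Ngp* had 2.77 and 4.80, 3.60 and 7.09, and 2.90 and 6.47, whereas *Ly6g* and *Mpo* were higher in replicate 1 of each group. Of the markers of other cells, those well above background on all 6 arrays were 1 of 3 for T cells, 0 of 4 for fibroblasts, and 0 of 2 for each of mast cells and basophils, eosinophils, dendritic cells, and erythroid cells. Among them *Prg2* of eosinophils was lower with LPS+USP7i than in both other groups and *Zbtb46* of dendritic cells was higher in both LPS-treated groups than untreated. Both were dim. *Prg2* had 4.49 and 4.55 (untreated), 4.46 and 5.01 (LPS), and 2.20 and 2.18 (LPS+USP7i), and was well above background on no LPS+USP7i array. *Zbtb46* was well above background on no untreated array. The part of other cell types in the levels of *Camp*, *S100a8*, and *S100a9* was not tested. Nearest to *S100a9* over the 6 arrays were the stefin genes *Stfa1*, *Stfa2l1*, and *BC100530* (distances 0.96, 1.31, and 2.02), of which *Stfa2l1* and *BC100530* are on the granulocyte list.

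**Figure D4:**
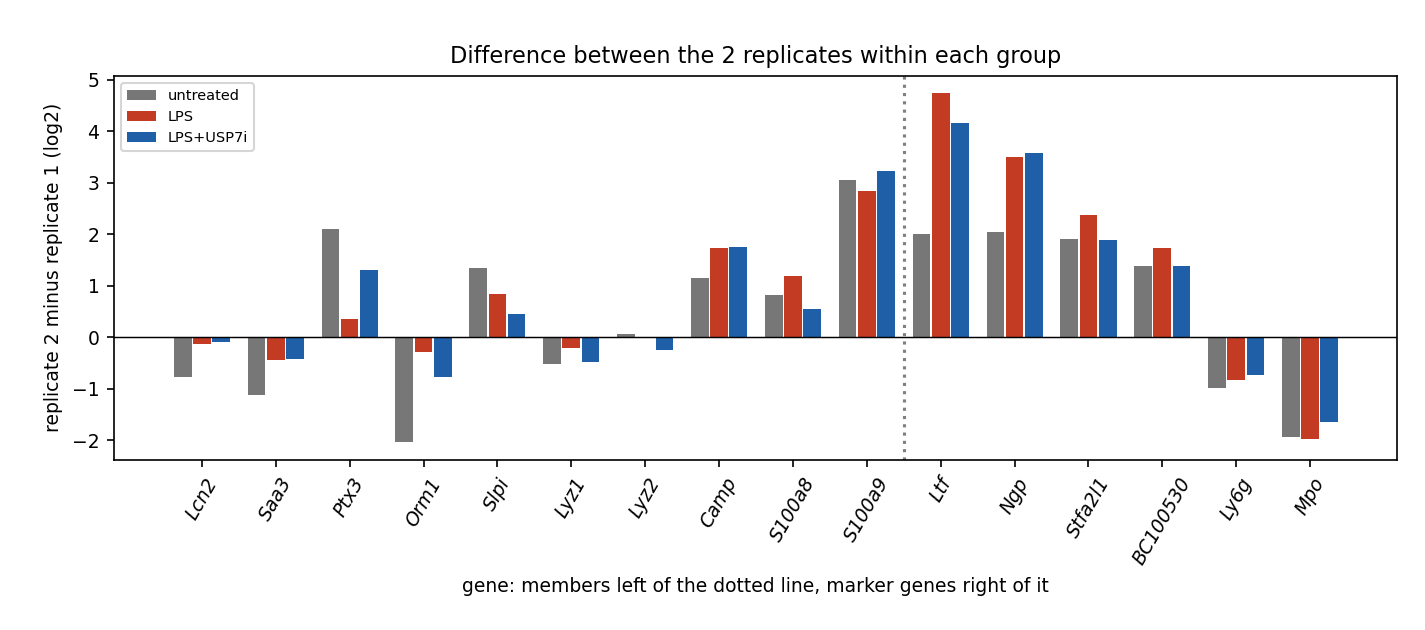
Log2 difference between replicate 2 and replicate 1 (y axis) within each group for the 10 genes and, right of the dotted line, for 6 granulocyte marker genes picked after their values were seen. *Camp*, *S100a8*, *S100a9*, *Slpi*, and *Ptx3* are higher in replicate 2 of every group, as are *Ltf* and *Ngp*. *Lcn2*, *Saa3*, *Lyz1*, *Orm1*, *Ly6g*, and *Mpo* are lower in replicate 2 of every group.

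Other secreted genes of the same kinds were read from a list of 54 names, of which 49 were on the array. With LPS 6 were called higher and 5 lower, and with LPS+USP7i against LPS 0 were higher and 6 were lower. Of all genes, 7.98% were higher and 12.8% lower with LPS, and 5.51% were higher and 4.28% lower with the inhibitor. The 6 genes that were lower with the inhibitor were the 6 that rose with LPS, *Cp*, *Serpina3g*, *Serpina3f*, *Saa1*, *Cd14*, and *Hamp*, in comparisons that share the LPS arrays. Of the 5 called lower with LPS, *Crp* was well above background on 0 of the 6 arrays, and the others differed by −0.30 to −0.46, less than the shift of 0.51 under 75th percentile scaling. The list's median difference was 0.092 and −0.053, and only 16 of the 49 genes were well above background on all 6 arrays. *Cp*, which encodes the copper-carrying ferroxidase ceruloplasmin, had levels of 7.72 and 6.81 (untreated), 12.37 and 11.68 (LPS), and 6.99 and 7.43 (LPS+USP7i), so that the inhibitor arrays lay between the untreated ones. Its differences were 4.76 and −4.82 (SE 0.43, adjusted p = 0.00741 and 0.0175). *Serpina3g*, a serine protease inhibitor family gene, had levels of 6.28 and 5.18, 13.95 and 13.90, and 8.41 and 9.62, and was lower with the inhibitor by −4.91 (SE 0.58, adjusted p = 0.0257). It stayed above untreated by 3.29 (adjusted p = 0.0398). Its relative *Serpina3f*, not well above background on either untreated array, had 11.27 and 10.99 (LPS) and 6.36 and 7.22 (LPS+USP7i), a difference of −4.34 (SE 0.35, adjusted p = 0.0154).

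Of the transcription regulators tied to these genes, 10 of 11 names were on the array. LPS raised 7 and lowered 1, where 7.98% of all genes were higher and 12.8% were lower. With the inhibitor 5 (*Bcl3*, *Cebpd*, *Nfkb1*, *Rel*, and *Rela*) were lower and 2 were higher than with LPS. Of all genes, 4.28% were lower and 5.51% higher in that comparison. *Cebpd*, which encodes C/EBPδ, was among the 3 genes nearest to *Lcn2* over the 6 arrays (distance 0.44, after *Ptpru* at 0.36 and *Gbp9* at 0.43). Its levels were 12.89 and 12.52 (untreated), 15.95 and 15.63 (LPS), and 12.999 and 13.23 (LPS+USP7i). It rose by 3.08 (SE 0.20, adjusted p = 0.00439) and was lower with the inhibitor by −2.68 (SE 0.20, adjusted p = 0.0144). The 2 regulators that were higher with the inhibitor, named after their values were seen, were the C/EBP family genes *Cebpa* and *Cebpb*. *Cebpa* had levels of 11.14 and 11.05, 7.76 and 7.47, and 10.79 and 10.18, a log2 difference of −3.48 with LPS (adjusted p = 0.00494) and a difference of 2.87 with the inhibitor (adjusted p = 0.0164). *Cebpb* differed by 0.040 with LPS (adjusted p = 0.946) and by 0.94 with the inhibitor (adjusted p = 0.0307). The nearest genes to *Ptx3* were *Cd40*, *Lhx2*, and *Ch25h* (distances 1.53, 1.59, and 1.67), and those nearest to *Slpi* were *Uck2*, *Mmp12*, and *Cd109* (0.80, 0.85, and 0.86).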

How the data were processed

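Cy3-labeled RNA (200 ng per sample) of 6 samples, 2 in each of 3 groups taken from the labels, was hybridized to 1-color Agilent mouse arrays. The authors deposited the scanner output, whose processed signal is an intensity already corrected for background by the scanner software, and a table of normalized log2 values. According to the written methods, that table came from quantile normalization in limma, and genes were compared by linear models at an adjusted p of 0.05.

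Here log2 of the deposited processed intensity of 59305 non-control spots was quantile-normalized, outlier spots were removed, and repeat spots were averaged by probe. All 6 arrays were fitted with limma 3.58.1 in R 4.3.3 (3 residual and 1.05 prior degrees of freedom), and p-values were two-sided and adjusted by Benjamini-Hochberg over 55680 probes, so that SEs are moderated across probes. A gene was represented by its brightest probe, and all 11 probes matched a RefSeq accession of the named gene. The fit was tested on simulated data with errors independent between arrays, a setting that leaves out the shared deviations of replicates given next. Same-numbered replicates deviated together, with correlations of 0.468, 0.398, and 0.422 over the 20721 probes well above background on all arrays. The replicate numbers in the labels were therefore taken to pair the samples, and a fit with the replicate number as a block was run. The other alternatives were 75th percentile scaling, normexp background correction (offset 50), the deposited log2 values, dim probes left out (25085 of 55681 kept), outlier spots kept, fits of the 2 groups compared, each array left out, the mean over a gene's probes, and a log2 difference of at least 1.

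The members and lists were chosen with earlier results of these data known. Genes outside the 10 were named as the 3 largest falls with the inhibitor in the related list, or as the 3 nearest genes over the arrays. The 3 largest rises in that list were of *Hpx*, *Itih4*, and *Crp* (1.74, 1.07, and 0.91), and none was called. Other genes were named as examples of a list, or after their values or calls were known. Other lists examined were receptors, macrophage and granulocyte markers, and markers of T cells, fibroblasts, mast cells and basophils, eosinophils, dendritic cells, and erythroid cells. A further marker list is not reported here.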

Additional observations from a re-analysis of the deposited data

How the results depend on the processing

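The direction and the call of a gene in a comparison stayed the same in 367 of 417 alternatives, 18 lost and 15 gained a call in the same direction, and 17 changed direction, 15 of these with an array left out. The other 2, both *Lyz2* with 75th percentile scaling, also gained a call. Many of these alternatives could hardly change a result, so the count of 367 is no measure of robustness. No spot of the 10 genes was flagged as an outlier, and every gene but *Camp* has 1 probe. Leaving out an array of the group not compared nearly repeats the fit of the 2 groups compared. With an array left out, a lone array is assumed to vary like those of the other groups. Of the 10 genes, 3 were higher with LPS than untreated, and 5 were with the replicate block, which added *Camp* and *S100a9*. With 75th percentile scaling 4 were higher, with *Lyz2* added. The count was 1 to 3 with an array left out. With LPS+USP7i against LPS 2 were lower, 0 in the fit of the 2 groups compared, 0 to 0 with an array left out, and 3 with the replicate block, which added *Camp*. For LPS+USP7i against untreated, 0 became 3 with 75th percentile scaling, which called 21937 of all 55680 probes higher, 2 with dim probes left out, 2 with the replicate block (*Slpi* and *Ptx3*), and 1 each with normexp, the deposited values, and the mean over probes. The replicate block changed no other call of the 10 genes. For LPS+USP7i against LPS, 3 were also lower with normexp, with the deposited values, and with dim probes left out, which each added *Ptx3*. The causes were not tested.

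*Lyz2* was 0.37 above untreated both with LPS and with LPS+USP7i under 75th percentile scaling, which moved the median of all probes by 0.51 and 0.55. With an array left out, the LPS difference ranged from −0.55 to 0.79 for *Slpi* and from −0.19 to 0.33 for *Lyz1*. The difference of LPS+USP7i from LPS ranged from −0.46 to 0.72 for *S100a8*, −2.61 to 0.61 for *S100a9*, and −0.19 to 0.59 for *Orm1*. The difference of LPS+USP7i from untreated ranged from −0.32 to 0.80 for *Saa3*, −0.53 to 1.22 for *Camp*, −0.16 to 0.078 for *Lyz2*, and −0.86 to 2.37 for *S100a9*. None of these was called with all arrays. *Orm1* and untreated *Ptx3* lay at or near background, where the signal sets no firm level, and *Orm1* dropped out where dim probes were left out.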

Other observations

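Receptors of the secreted proteins were read from a list of 12 genes, all on the array, and those named here were chosen after their values were seen. With LPS 3 rose and 3 fell, and with LPS+USP7i 3 were lower than with LPS and 0 were higher by limma, where 7.98% and 12.8% of all genes were higher and lower with LPS and 5.51% and 4.28% were with the inhibitor. *Fpr2*, a formyl peptide receptor that also binds serum amyloid A, had levels of 8.30 and 6.99 (untreated), 13.49 and 13.20 (LPS), and 9.48 and 10.25 (LPS+USP7i). It rose by 5.70 (adjusted p = 0.00836) and was lower with the inhibitor by −3.48 (adjusted p = 0.0419). *Tlr2*, a receptor of bacterial lipoproteins, had levels of 11.88 and 11.55, 15.37 and 15.34, and 14.24 and 14.52, a rise of 3.64 (adjusted p = 0.00310) and a difference of −0.98 with the inhibitor (adjusted p = 0.0465). *Fcgr1*, an Fc receptor that pentraxins can bind, differed by 0.34 with LPS (adjusted p = 0.448) and was lower with the inhibitor by −1.60 (adjusted p = 0.0317). *P2rx7*, an ATP-gated channel, fell by 2.03 with LPS (adjusted p = 0.00252) and differed by −0.29 between LPS+USP7i and LPS (adjusted p = 0.0772). *Tlr4*, the receptor of LPS, fell by 0.80 with LPS (adjusted p = 0.0305) and differed by 0.51 with the inhibitor (adjusted p = 0.124).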
